A study of Mus musculus with 5 samples.

Results

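*Akap12*, *Rnls* and *Rasgrp3* are 3 of the 33696 mouse genes counted in single-cell RNA sequencing of sorted retinal cells, and they were taken because their levels in Müller glia (MG) differed between the AAVs in these libraries. Their differences between AAVs are therefore given as descriptions without a test. MG were cells of at least 1000 unique molecular identifiers (UMIs, each standing for 1 captured RNA molecule) with at most 15% mitochondrial UMIs and at least 0.5% of UMIs on 5 genes of MG, *Glul*, *Rlbp1*, *Slc1a3*, *Clu* and *Aqp4*. By this rule 6540 of 10749 cells were MG and 4209 were other cells.

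All mice carried *Glast-CreERT2* and *Rosa26-Ai65* on C57BL/6J, were 12 to 20 weeks old, of both sexes pooled, and received tamoxifen. One group was injected in the eye with a ShH10 AAV encoding *Yap5SA* and FlpO under a *Gfap* promoter, and the control group with the same vector encoding *mKate2*, a red fluorescent protein, and FlpO. *Yap5SA* is a YAP made resistant to Hippo kinases. tdTomato needs both Cre and FlpO, so it marks infected MG and their progeny, and tdTomato+ cells were sorted 56 days after injection from 16 (*mKate2* AAV) or 21 (*Yap5SA* AAV) retinas pooled per condition. The libraries analysed are 2 of *mKate2* AAV, named control replicates 1 and 2 hereafter, and 2 of *Yap5SA* AAV, named *Yap5SA* replicates 1 and 3. *Yap5SA* replicate 2 was left out because it shares 1361 cell barcodes with replicate 1, 99.8% of its own, whereas any other pair of libraries shared at most 0.218%. Because retinas were pooled and the labels do not say which animals gave which library, the spread between 2 libraries of 1 AAV may be partly technical.

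The 4 libraries held between 13132765 and 50938304 UMIs. MG numbered 1498 and 2898 in the *mKate2* AAV libraries and 803 and 1341 in the *Yap5SA* AAV libraries, which was 89.4%, 51.4%, 71.3% and 58.1% of the cells that passed the limits on UMIs and mitochondrial share. The label of purified MG thus did not hold for all cells. MG of control replicate 1 and *Yap5SA* replicate 1, processed with Cell Ranger 8.0.0 per the file headers, had a median of 6194 and 10778 UMIs. MG of control replicate 2 and *Yap5SA* replicate 3, processed with Cell Ranger 9.0.1, had 2918 and 2920. Each version thus held 1 library per AAV, and values are given within each version where libraries of the same AAV differed.

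MG are the radial glia of the retina. They span its full depth, take up glutamate and potassium released by neurons, and re-enter the cell cycle in some vertebrates after injury. YAP is the transcriptional co-activator at the end of the Hippo pathway and acts with TEAD factors on DNA. *Akap12* encodes gravin (SSeCKS), a scaffold that holds protein kinase A and protein kinase C near the membrane and cytoskeleton. *Rasgrp3* encodes an exchange factor that loads Ras and Rap1 with GTP and is recruited by diacylglycerol, the same lipid that activates protein kinase C. *Rnls* encodes renalase, a flavin-dependent oxidase that is related to amine oxidases in sequence.

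Positions and transcripts are from a GENCODE release on GRCm39 that is newer than the gene list of the counts. *Akap12* (ENSMUSG00000038587) lies at chr10:4216118-4309470 on the + strand with 6 transcripts from 5 start sites. *Rasgrp3* (ENSMUSG00000071042) lies at chr17:75742827-75836076 on the + strand with 19 transcripts from 12 start sites. *Rnls* (ENSMUSG00000071573) lies at chr19:33115147-33369665 on the - strand and spans 254519 bases. Its only transcript is typed there as protein coding with loss of function. The noncoding genes Gm29946, Mir3970 and 2810449D17Rik overlap *Rnls* on the opposite strand, and the long noncoding Gm67397 overlaps *Akap12* on the opposite strand. Gm29946 and 2810449D17Rik were on the gene list of the counts, and Mir3970 and Gm67397 were not. Whether reads were counted by strand is not given in the sources used here, so reads of such pairs may not be told apart.

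The 250 bases before the start of each gene's canonical transcript are shown because the agent compared, YAP, reaches DNA through TEAD factors at promoters and enhancers. They were read 5′ to 3′ on the gene's own strand from GRCm39, at chr10:4284295-4284544 for *Akap12*, chr17:75742577-75742826 for *Rasgrp3* and chr19:33369666-33369915 for *Rnls*. No letters are in capitals because none of the motifs searched was found.
Akap12: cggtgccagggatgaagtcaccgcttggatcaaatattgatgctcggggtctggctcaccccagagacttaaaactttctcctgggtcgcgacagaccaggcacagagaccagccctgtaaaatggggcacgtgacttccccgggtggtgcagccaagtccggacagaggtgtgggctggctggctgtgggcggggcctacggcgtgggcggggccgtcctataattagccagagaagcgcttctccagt
Rasgrp3: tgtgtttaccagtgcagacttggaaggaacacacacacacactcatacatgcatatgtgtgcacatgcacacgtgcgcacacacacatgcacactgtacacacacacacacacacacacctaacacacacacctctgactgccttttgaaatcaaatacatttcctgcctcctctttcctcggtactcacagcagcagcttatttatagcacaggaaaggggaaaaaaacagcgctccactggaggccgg
Rnls: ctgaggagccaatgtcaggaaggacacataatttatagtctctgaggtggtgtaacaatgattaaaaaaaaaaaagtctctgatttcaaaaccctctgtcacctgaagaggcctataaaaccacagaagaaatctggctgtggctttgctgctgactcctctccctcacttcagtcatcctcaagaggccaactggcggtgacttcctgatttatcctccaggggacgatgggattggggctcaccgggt
The TEAD motif GGAATG, searched on both strands, was in 0 of these windows, and it was in 12.1% of the 250-base windows before 21770 protein-coding genes. The AP-1 motif TGANTCA, the site of Fos and Jun dimers, was likewise in 0 of the windows and in 6.17% of those of all genes. The window of *Akap12* had 60.8% G and C, that of *Rasgrp3* 48.4% and that of *Rnls* 47.2%, beside a median of 53.2% over these genes. The window of *Rasgrp3* contains a long run of alternating c and a. A window without a match says only that these letters are not in it.

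*Akap12* was lower and *Rnls* and *Rasgrp3* were higher in MG of *Yap5SA* AAV libraries, as their choice implies. Levels are UMIs of the gene per 1000000 UMIs of MG (CPM), with exact 95% Poisson intervals that cover counting error only. *Akap12* stood at 61.4 CPM (57.0 to 66.0, 729 UMIs) and 149 CPM (144 to 155, 2770 UMIs) in control replicates 1 and 2. In *Yap5SA* replicates 1 and 3 it stood at 37.0 CPM (33.2 to 41.0, 356 UMIs) and 56.4 CPM (51.3 to 61.9, 442 UMIs). The lower control library and the higher *Yap5SA* AAV library were thus close to each other, and their intervals overlapped, while control replicate 2 stood apart from all others. The means were 105 ± 62.0 and 46.7 ± 13.7 CPM (SD, n = 2 libraries per AAV). In a fit over all genes (edgeR, TMM scaling) the log2 fold change of *Akap12* was -1.31 ± 0.57 (SE). Without control replicate 2 it was -0.37, so most of its size came from that library.

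*Rnls* stood at 6.23 CPM (4.89 to 7.82, 74 UMIs) and 5.11 CPM (4.13 to 6.25, 95 UMIs) in control replicates 1 and 2. In *Yap5SA* replicates 1 and 3 it stood at 12.3 CPM (10.1 to 14.7, 118 UMIs) and 10.9 CPM (8.67 to 13.4, 85 UMIs). The libraries of each AAV lay close together, and no interval of one AAV reached into those of the other. The means were 5.67 ± 0.791 and 11.6 ± 0.995 CPM (SD, n = 2 libraries per AAV), and the fitted log2 fold change was 0.93 ± 0.36 (SE).

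*Rasgrp3* stood at 2.19 CPM (1.43 to 3.21, 26 UMIs) and 3.44 CPM (2.65 to 4.40, 64 UMIs) in control replicates 1 and 2. In *Yap5SA* replicates 1 and 3 it stood at 4.88 CPM (3.59 to 6.49, 47 UMIs) and 14.4 CPM (11.9 to 17.3, 113 UMIs). The intervals of control replicate 2 and *Yap5SA* replicate 1 overlapped, and *Yap5SA* replicate 3 stood apart from the other 3 libraries. The means were 2.82 ± 0.887 and 9.65 ± 6.75 CPM (SD, n = 2 libraries per AAV), and the fitted log2 fold change was 1.65 ± 0.72 (SE). Without *Yap5SA* replicate 3 it was 0.65. *Yap5SA* replicate 2, which holds the cells of replicate 1, gave 36.7 CPM of *Akap12*, 12.3 of *Rnls* and 5.31 of *Rasgrp3*.

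**Figure D1:**
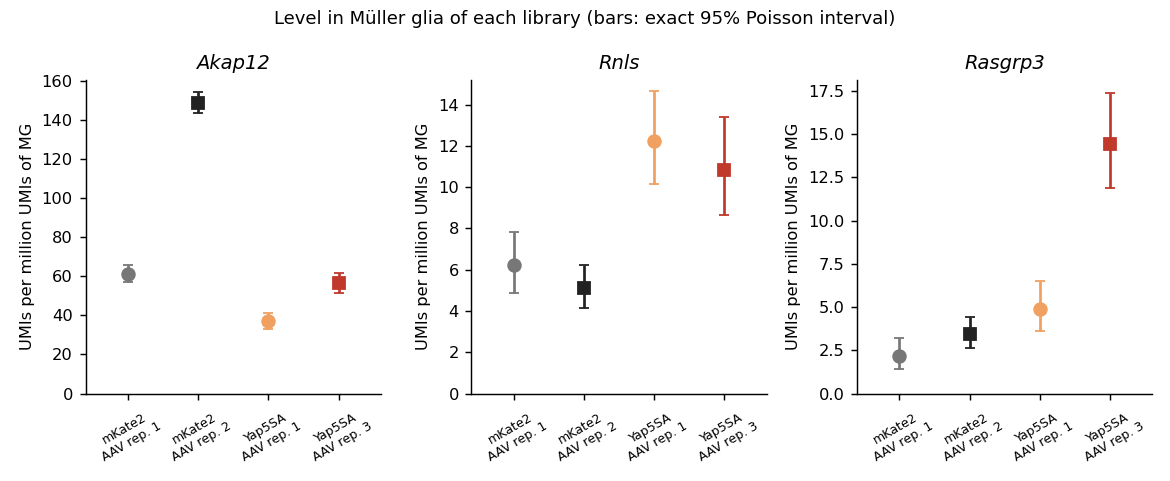
Level of *Akap12*, *Rnls* and *Rasgrp3* in MG of each library, in CPM of MG on a linear axis from 0, with exact 95% Poisson intervals as bars. Control replicate 2 at 149 CPM sets the size of the *Akap12* difference and *Yap5SA* replicate 3 at 14.4 CPM that of *Rasgrp3*, while for *Rnls* the libraries of each AAV lie together.

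Over all 15285 genes tested between AAVs, edgeR called 0% at an adjusted p of 0.05, and DESeq2 also called 0. Before adjustment 30 genes in edgeR and 52 in DESeq2 had a p under 0.05. None of the 3 genes was therefore called. Libraries did not overlap with *Yap5SA* AAV higher in 11.9% of genes, 1815 in number, and with *Yap5SA* AAV lower in 3.49%, 533 in number. By size of fold change *Rasgrp3* ranked 198, *Akap12* 342 and *Rnls* 748 of 15285. These shares are background for genes chosen on the same contrast, and nothing is read from them.

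Within the libraries of 1 Cell Ranger version, each of which pairs 1 library per AAV, the direction of each gene was the same, which its choice fixed, since the libraries of the AAVs do not overlap for any of the 3. *Akap12* was 1.66-fold lower with *Yap5SA* AAV under version 8.0.0 and 2.64-fold lower under 9.0.1. *Rnls* was 1.97-fold and 2.12-fold higher. *Rasgrp3* was 2.23-fold and 4.19-fold higher. The ratio of *Rnls* differed least between versions, and that of *Rasgrp3* differed most.

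How many cells carried each gene separates the 3 further. The measures that follow weigh or select the same MG on which the genes were chosen. A kept gap between AAVs is thus no independent result. The 10 MG with the most *Akap12* UMIs held 20.4% and 52.4% of them in control replicates 1 and 2, and 21.1% and 72.4% in *Yap5SA* replicates 1 and 3. A single MG of control replicate 2 had 435 *Akap12* UMIs and one of *Yap5SA* replicate 3 had 146, against at most 33 and 18 in the other libraries. The high summed levels of *Akap12* in both libraries of version 9.0.1 thus came largely from few cells. These 10 cells had a median of 103359 UMIs in control replicate 2 and 29236 in *Yap5SA* replicate 3. Their median share of UMIs on immediate-early and stress genes was 4.16% and 4.69%. The list holds 24 genes, among them the Fos, Jun and Egr genes that cells switch on within minutes of a stimulus and 6 heat-shock genes such as *Hspa1a*, and is called immediate-early hereafter. In control replicate 1 and *Yap5SA* replicate 1 the same share of the highest cells was 0.277% and 0.285%. Of the 10 highest cells, 3 in *Yap5SA* replicate 3 and 1 in control replicate 2 had at least 0.5% of UMIs on markers of another cell type.

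With each cell weighed alike, as the mean of the CPM of single cells, *Akap12* was 64.4 and 60.9 CPM with *mKate2* AAV and 38.2 and 23.8 CPM with *Yap5SA* AAV. The control libraries, which differed most in the summed level, were alike in this measure. Without the 10 highest cells of each library, the summed level was 49.4 and 75.3 CPM with *mKate2* AAV and 30.2 and 16.6 CPM with *Yap5SA* AAV, and the libraries did not overlap. The share of MG with at least 1 *Akap12* UMI was 22.1%, 12.2%, 23.5% and 6.04% in the order control replicates 1 and 2 and *Yap5SA* replicates 1 and 3, which overlaps and moves with depth. After each cell was thinned to 2000 UMIs it was 9.40% and 7.76% with *mKate2* AAV and 6.10% and 3.85% with *Yap5SA* AAV. In microglia and macrophage-like cells, with the lowest level of *Akap12*, the thinned share was 0.608% (median of 5486 UMIs per cell before thinning, against 3619 in MG).

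*Rnls* was carried by few MG in every library. In the same order of libraries 51, 50, 56 and 26 MG had a UMI of it, or 3.40%, 1.73%, 6.97% and 1.94%. The 10 highest cells held 40.5%, 48.4%, 43.2% and 76.5% of its UMIs. Without them the level was 3.77 and 2.68 CPM with *mKate2* AAV and 7.15 and 2.71 CPM with *Yap5SA* AAV, so the libraries overlapped. The mean over cells was 4.59 and 2.63 CPM against 8.77 and 5.38 CPM and did not overlap. The thinned share of cells was 1.10% and 0.645% against 1.76% and 0.987%, which overlapped, and in pericyte-like cells, low in *Rnls*, it was 0.495% (median of 4185 UMIs). Leaving out these cells thus took the *Rnls* of *Yap5SA* replicate 3 down to the level of control replicate 2, while replicate 1 of *Yap5SA* stayed above both control libraries.

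*Rasgrp3* was spread over more cells in *Yap5SA* replicate 3, where 72 MG had a UMI of it and the 10 highest held 28.3% of its UMIs with at most 4 per cell. In control replicates 1 and 2 and *Yap5SA* replicate 1, 20, 45 and 32 MG had one. Without the 10 highest cells the level was 0.854 and 2.17 CPM with *mKate2* AAV and 2.77 and 10.6 CPM with *Yap5SA* AAV. The mean over cells was 2.47 and 3.99 CPM against 5.40 and 13.3 CPM, and the thinned share 0.446% and 0.785% against 0.957% and 3.05%. In rod-like cells the thinned share was 0.0235% (median of 7160 UMIs). By the level without the 10 highest cells, the mean over cells and the thinned share the *Yap5SA* AAV libraries were higher without overlap. The gap between control replicate 2 and *Yap5SA* replicate 1 was narrow. The number of MG with a UMI overlapped, while their share of MG did not (1.34% and 1.55% against 3.99% and 5.37%).

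**Figure D2:**
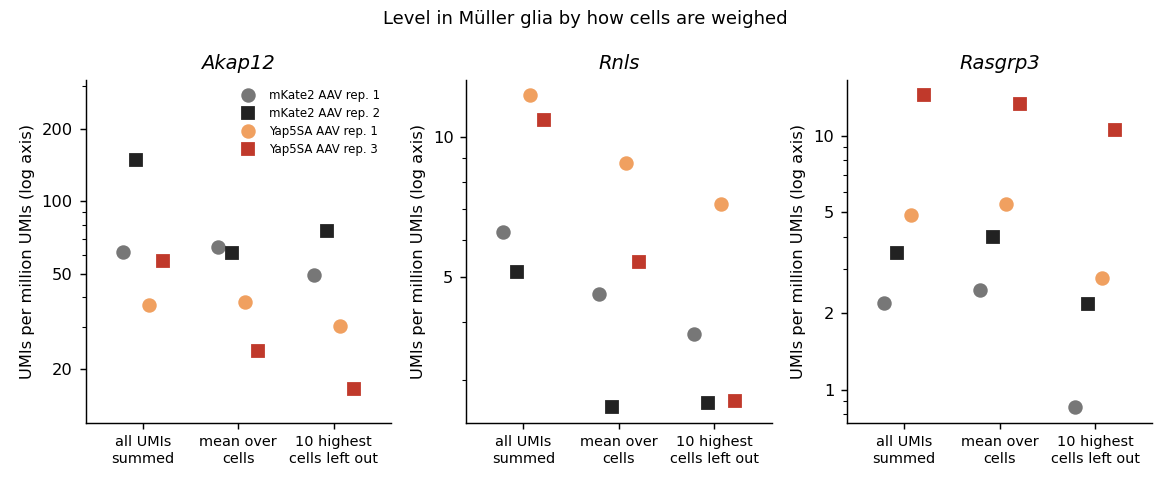
Level of each gene in MG on a log axis, in CPM, by 3 ways of weighing cells: all UMIs summed, the mean over cells, and the sum without the 10 cells with the most UMIs of the gene. Points are libraries. The control libraries of *Akap12* come together in the mean over cells (64.4 and 60.9 CPM), and for *Rnls* the libraries of the AAVs overlap once the 10 cells are left out.

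MG of different depth carried these differences unequally. Among MG of 2000 to 20000 UMIs, *Akap12* was 63.5 and 51.1 CPM with *mKate2* AAV and 32.5 and 25.1 CPM with *Yap5SA* AAV. Among MG of 1000 to 2000 UMIs it was 64.9 and 56.2 CPM against 61.0 and 13.3 CPM, which overlapped. Among MG above 20000 UMIs it was 53.1 and 264 CPM against 43.1 and 99.3 CPM. Of the 2770 *Akap12* UMIs of control replicate 2, 2249 were thus in its 221 MG above 20000 UMIs. *Rasgrp3* in MG of 2000 to 20000 UMIs was 2.24 and 5.13 CPM with *mKate2* AAV and 4.69 and 20.6 CPM with *Yap5SA* AAV, so control replicate 2 was above *Yap5SA* replicate 1 there. *Rnls* was 6.27 and 4.91 CPM against 8.33 and 11.0 CPM, without overlap. Within that range, MG of 2000 to 5000 UMIs had 5.43 and 3.19 CPM of *Rnls* against 2.36 and 5.31 CPM, which overlapped. These levels rest on 6, 13, 1 and 10 UMIs. MG of 5000 to 20000 UMIs had 6.39 and 6.41 CPM against 8.80 and 16.5 CPM. In MG of 1000 to 2000 UMIs no *Rnls* UMI was counted in any library, which allows up to 6.71, 2.31, 22.9 and 4.97 CPM (3 counts of the total). These limits are below the level over all MG in control replicate 2 and *Yap5SA* replicate 3 and above it in replicate 1 of each AAV, where such a level was not detectable in shallow cells.

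Markers of other cell types counted in MG were summed for each library. The 7 pericyte markers took 0.00788% and 0.00730% of MG UMIs with *mKate2* AAV and 0.00415% and 0.00566% with *Yap5SA* AAV, which is the direction of *Akap12*. *Pdgfrb* made up most of the sum except in control replicate 2, with 891 of 936 UMIs in control replicate 1. The markers did not move as one in control replicate 2, the library whose *Akap12* stands apart. *Rgs5* was 38.1 CPM there against 0.758, 1.35 and 2.30 CPM in control replicate 1 and *Yap5SA* replicates 1 and 3, and *Acta2*, smooth muscle actin, 11.7 against 0.0842, 5.19 and 8.04 CPM. *Pdgfrb*, the receptor for PDGF-B, was lowest there, at 20.4 against 75.0, 33.9 and 39.7 CPM. *Notch3*, *Cspg4*, *Myh11* and *Kcnj8* had at most 2.43 CPM in any library and were not highest there, and *Kcnj8* was at 0 in replicate 1 of each AAV. In pericyte-like cells there were 12.9 *Akap12* UMIs per 100 UMIs of these markers, and in MG there were 77.9, 204, 89.2 and 99.8 in the order control replicates 1 and 2 and *Yap5SA* replicates 1 and 3. At the ratio of pericyte-like cells the markers counted in MG would bring 10.1, 9.38, 5.33 and 7.27 CPM of *Akap12*, which is 16.5%, 6.30%, 14.4% and 12.9% of its level.

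The 10 microglia and macrophage markers took 0.00742% and 0.0295% of MG UMIs with *mKate2* AAV and 0.0101% and 0.00717% with *Yap5SA* AAV. *Yap5SA* replicate 3, with the most *Rasgrp3*, had the least of them, while under version 8.0.0 they were higher with *Yap5SA* AAV as *Rasgrp3* was, and *Tmem119* was at 0 in both *Yap5SA* AAV libraries. At the ratio of microglia and macrophage-like cells, 0.210 *Rasgrp3* UMIs per 100 marker UMIs, they would bring 0.156, 0.620, 0.212 and 0.151 CPM. Of the 7 endothelial markers, which took between 0.124% and 0.206% of MG UMIs, nearly all UMIs were of *Kdr* and *Flt1*. Of the other 5, *Cdh5*, the cadherin of endothelial junctions, was at 0 in all 4 libraries, and *Tek* and *Ly6c1* overlapped between AAVs at no more than 0.673 CPM. *Pecam1* had 1.18 and 2.37 CPM with *mKate2* AAV and 3.32 and 2.68 CPM with *Yap5SA* AAV, the direction of *Rasgrp3*, while *Cldn5* went the opposite way, with 1.35 and 1.34 against 0.312 and 1.02 CPM. In endothelial-like cells there were 6.57 *Rasgrp3* UMIs per 100 UMIs of these 5 markers, a choice made after seeing the values, and at that ratio they would bring 0.210, 0.283, 0.273 and 0.277 CPM to MG. With *Kdr* and *Flt1* included the ratio would give 44.1 to 73.3 CPM, more than the *Rasgrp3* counted in MG of any library. The 8 rod markers took 0.00722%, 0.0679%, 0.000706% and 0.132% of MG UMIs. They were lowest in *Yap5SA* replicate 1, with the most *Rnls*, while under version 9.0.1 they were higher with *Yap5SA* AAV as *Rnls* was. At the ratio of rod-like cells they would bring 0.0879, 0.826, 0.00860 and 1.60 CPM of *Rnls*, and their part beyond that ratio was not tested. The 7 markers of pigment epithelium took 0.00190% and 0.0542% of MG UMIs with *mKate2* AAV and 0.0217% and 0.435% with *Yap5SA* AAV. Their sum was thus higher with *Yap5SA* AAV under both versions, the direction of *Rnls* and *Rasgrp3*, and was mostly *Ttr* except in control replicate 1. *Rpe65*, the isomerase of the visual cycle, was 0.0842 and 28.2 against 5.82 and 346 CPM. *Ttr*, *Lrat*, *Tyrp1* and *Mlana* were also higher under both versions. *Best1* went the opposite way, with 2.19 and 1.61 against 1.35 and 1.15 CPM. *Rgr* was 11.3 and 75.1 against 11.1 and 672 CPM, so it was not higher under version 8.0.0. *Lrat* and *Tyrp1* were at 0 in control replicate 1. The part of pigment epithelium markers was not tested beyond leaving out MG by their share of markers of other types, as follows. The pigment epithelium sum kept beside that step was 0.175% of MG UMIs in control replicate 1, more than the 7 markers took. It appears to include *Rlbp1*, a gene of the MG rule with 1732 CPM there. The step itself did not count *Rlbp1*, since genes that are also on the list of MG markers were left out of it.

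Leaving out MG with at least 0.5% of UMIs on markers of any 1 other type removed between 0.996% of MG in *Yap5SA* replicate 1 and 12.1% in *Yap5SA* replicate 3. *Akap12* then stood at 61.7 and 139 CPM with *mKate2* AAV and 37.3 and 29.0 CPM with *Yap5SA* AAV, *Rnls* at 5.75 and 4.92 against 12.4 and 10.3 CPM, and *Rasgrp3* at 2.23 and 2.78 against 4.73 and 12.0 CPM. The libraries of the AAVs did not overlap for any of the 3, which their choice made likely, since most of the same MG were kept. The share of all genes without overlap in these MG was not computed. Around the limit of the MG rule, 193 cells had 0.4% to 0.5% of UMIs on its 5 genes and 210 had 0.5% to 0.6%. *Akap12* was 66.1 CPM just below the limit and 317 CPM just above it, *Rnls* 8.67 and 2.74 CPM, and *Rasgrp3* 5.42 and 0 CPM. The count of 0 in the cells just above allows up to 2.74 CPM. With a limit of 1% in place of 0.5%, *Yap5SA* replicate 3 kept 157 of its 442 *Akap12* UMIs and stood at 23.7 CPM in place of 56.4, beside 60.4, 136 and 34.3 CPM in control replicates 1 and 2 and *Yap5SA* replicate 1. The log2 fold change of *Akap12* was then -1.92 in place of -1.31.

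tdTomato was on the gene list of the version 8.0.0 libraries, where 45.1% of MG of control replicate 1 and 65.1% of *Yap5SA* replicate 1 had a UMI of it. MG with one were deeper, with medians of 9080 against 3890 UMIs and of 13790 against 5700. *Akap12* was 64.1 CPM with and 57.7 CPM without a tdTomato UMI in the *mKate2* AAV library and 38.3 and 32.8 CPM in the *Yap5SA* AAV library. *Rnls* was 5.26 and 7.56 CPM in the former and 11.0 and 16.2 CPM in the latter. *Rasgrp3* was 1.46 and 3.18 CPM in the former and 4.26 and 6.81 CPM in the latter. With 1 library per AAV there is no test, and the difference between AAVs had the same direction in both kinds of MG for each gene.

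The 3 genes were seldom counted in the same cell. In control replicates 1 and 2 and *Yap5SA* replicates 1 and 3, 379, 421, 247 and 164 MG had a UMI of at least 1 of them, and 23, 27, 26 and 15 had UMIs of 2 or more. All 3 genes were counted together in 4 MG of *Yap5SA* replicate 1 and in 0 MG of the other libraries. Most pairs were of *Rnls* and *Akap12*, with 18, 19, 18 and 9 cells. *Rnls* was counted in only 51, 50, 56 and 26 MG and *Akap12* in 331, 353, 189 and 81. The number of shared cells that these counts alone would give was not computed. The low numbers thus do not say whether the genes share or avoid cells.

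Differences among MG within each library were not used to choose the genes and were tested. MG of each library were split into 3 groups of like size (lower, middle and upper) by the share of UMIs on ribosomal protein genes, by UMI count and by the share on immediate-early genes. UMIs were summed over the upper and the lower group, and edgeR's quasi-likelihood test compared them over 4 libraries with library as a block and Benjamini-Hochberg adjustment over all genes tested.

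*Rnls* fell with ribosomal share and rose with UMI count. From the lower to the upper group of ribosomal share it went from 6.33 to 1.72 CPM and from 6.67 to 1.07 CPM in control replicates 1 and 2, and from 15.5 to 5.29 CPM and from 15.3 to 0 CPM in *Yap5SA* replicates 1 and 3. It was lower in the upper group in 4 of 4 libraries, with a log2 fold change of -1.93 ± 0.54 (SE, edgeR, adjusted p = 0.026). Of 12070 genes tested in this contrast 41.3% were called in either direction and 19.4% were called lower. The call of *Rnls* was lost with 2 groups in place of 3 (-0.85, adjusted p = 0.16) and without control replicate 1 (-2.01, adjusted p = 0.073) or replicate 2 (-1.87, adjusted p = 0.059), and over all alternatives the adjusted p ranged from 0.0076 to 0.16.

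By UMI count, *Rnls* went from 3.24 to 7.15 CPM and from 0 to 6.20 CPM in control replicates 1 and 2, and from 5.90 to 14.3 CPM and from 0 to 13.9 CPM in *Yap5SA* replicates 1 and 3. It was higher in the upper group in 4 of 4 libraries (log2 fold change 2.01 ± 0.65, SE, edgeR, adjusted p = 0.037). The lower groups held only 3, 0, 5 and 0 *Rnls* UMIs in this order of libraries. Where 0 were counted the intervals reach 2.46 and 5.45 CPM. In replicate 1 of each AAV the intervals of the groups overlapped (0.669 to 9.48 against 5.40 to 9.28, and 1.92 to 13.8 against 11.4 to 17.8 CPM). Of 12637 genes 25.9% were called in either direction and 13.1% were called higher. The call was lost with 2 groups in place of 3 (1.50, adjusted p = 0.092) and without control replicate 2 (1.60, adjusted p = 0.099) or *Yap5SA* replicate 3 (1.59, adjusted p = 0.12), and the adjusted p ranged from 0.0017 to 0.12 over all alternatives. The contrasts share cells, since the upper group by ribosomal share had a median of 2126, 2278, 4770 and 1934 UMIs per cell in the 4 libraries against 7741, 4750.5, 9748 and 6174 in the lower group. *Malat1*, a noncoding RNA retained in the nucleus, moved the same way between the lower and upper group of ribosomal share. It went from 105703 to 27982 CPM, from 44896 to 545 CPM, from 104589 to 46571 CPM and from 53788 to 582 CPM. As log2(CPM + 1), its change was smaller than that of *Rnls* in *Yap5SA* replicate 1 (-1.17 against -1.39). It was larger in control replicates 1 and 2 (-1.92 against -1.43 and -6.36 against -1.89) and *Yap5SA* replicate 3 (-6.53 against -4.03). The added 1 shrinks the change of *Rnls*, which stands at few CPM, and hardly that of *Malat1*. The order of their sizes thus depends partly on it. The part of *Malat1* in the change of *Rnls* was not tested.

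*Akap12* was higher in MG with more immediate-early UMIs in 4 of 4 libraries. It went from 36.0 to 74.7 CPM and from 39.2 to 217 CPM in control replicates 1 and 2, and from 26.5 to 38.5 CPM and from 21.7 to 94.4 CPM in *Yap5SA* replicates 1 and 3. The size was larger in both libraries of version 9.0.1, which hold the cells with over 100 *Akap12* UMIs. The log2 fold change was 1.55 ± 0.30 (SE) and missed the threshold in edgeR (adjusted p = 0.070, unadjusted p = 0.00089), where 0.817% of 12857 genes were called. DESeq2 gave 1.52 with an adjusted p of 0.00029, edgeR without a filter on low counts gave 1.55 with 0.00018, and the adjusted p ranged from 0.00018 to 0.42 over all alternatives. The range was widest for leaving out *Yap5SA* replicate 3 (1.34, adjusted p = 0.42).

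By ribosomal share *Akap12* split by Cell Ranger version. It went from 55.6 to 68.3 CPM and from 31.4 to 52.0 CPM in the version 8.0.0 libraries of *mKate2* AAV and *Yap5SA* AAV, and from 196 to 32.8 CPM and from 73.4 to 20.3 CPM in those of version 9.0.1. The fitted log2 fold change of -0.38 ± 0.50 (SE, edgeR, adjusted p = 0.57) averages over these opposite directions, and it was 0.21 without control replicate 2. By UMI count *Akap12* went from 64.9 to 59.1 CPM and from 33.0 to 37.7 CPM in the version 8.0.0 libraries of *mKate2* AAV and *Yap5SA* AAV. In those of version 9.0.1 it went from 53.4 to 179 CPM and from 13.3 to 69.0 CPM. The fitted log2 fold change of 0.67 ± 0.35 (SE, edgeR, adjusted p = 0.18) averages over these unlike libraries. Its adjusted p ranged from 0.017 to 0.58 over the alternatives.

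*Rasgrp3* was called in none of the 3 contrasts. In the upper against the lower group by immediate-early share it was lower in 4 of 4 libraries, at 1.72 against 2.84, 2.13 against 5.76, 4.81 against 5.75 and 11.4 against 16.8 CPM (log2 fold change -0.76 ± 0.31, SE, edgeR, adjusted p = 0.38). Over all genes 0.0389% were called lower in this contrast. By ribosomal share it was 0.52 ± 0.41 (SE, edgeR, adjusted p = 0.34). By UMI count it was -0.31 ± 0.50 (SE, edgeR, adjusted p = 0.68), with a lower level in deep MG of the version 8.0.0 libraries (4.32 to 2.04 and 8.26 to 4.95 CPM) and a higher one in those of version 9.0.1 (3.34 to 3.52 and 5.91 to 14.9 CPM). The difference of *Rnls* by immediate-early share was within its error (-0.11 ± 0.36, SE, edgeR, adjusted p = 0.93).

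**Figure D3:**
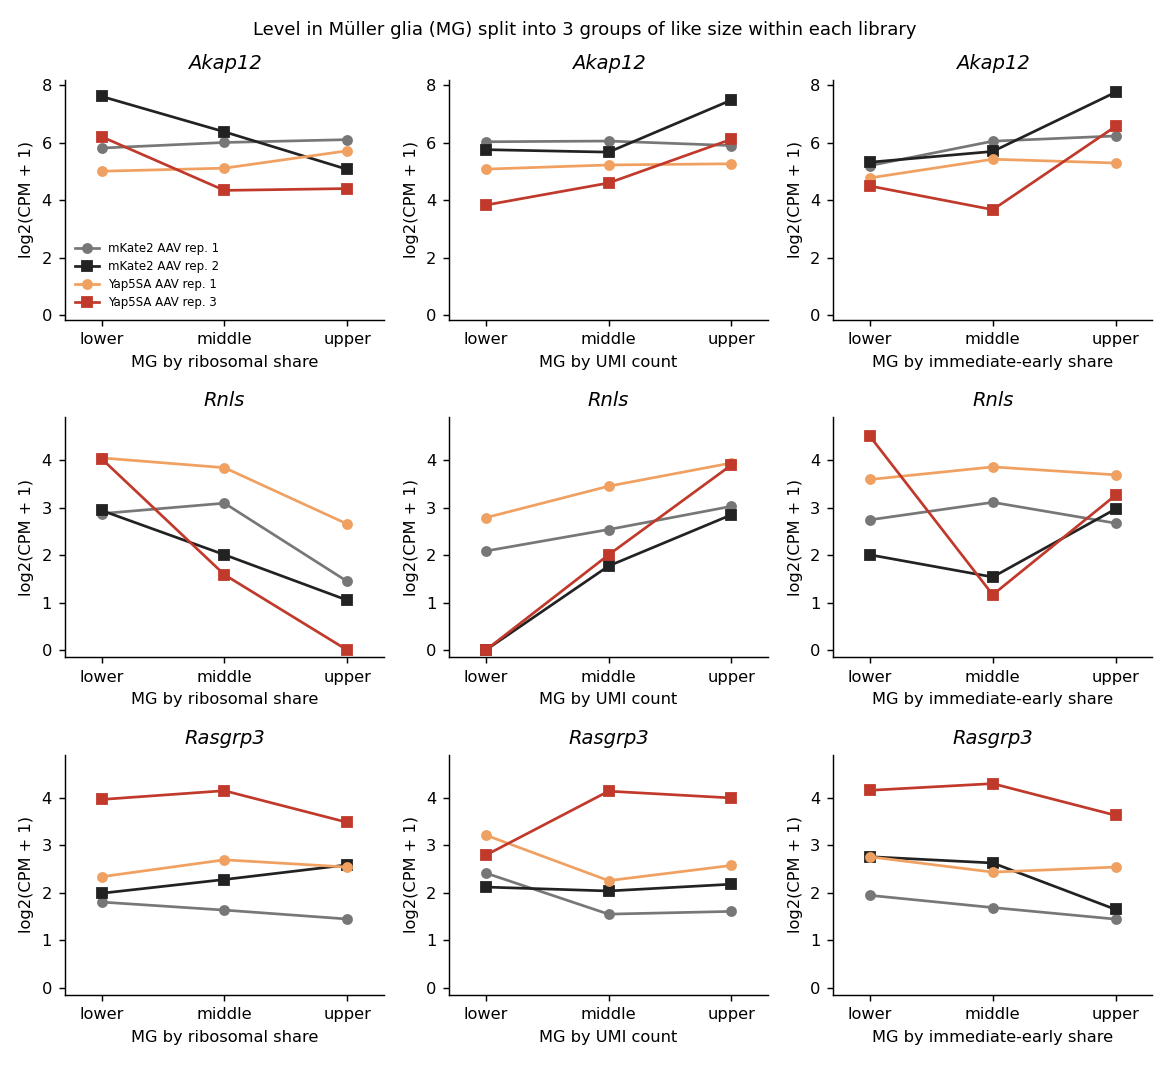
Level of each gene as log2(CPM + 1) in the lower, middle and upper group of MG of each library, ordered by ribosomal share, UMI count and immediate-early share. Lines join the groups of 1 library. From the lower to the upper group *Rnls* is lower by ribosomal share and higher by UMI count in all 4 libraries, though in control replicate 1 its middle group by ribosomal share is the highest (7.53 CPM). *Akap12* by ribosomal share is higher in the upper than in the lower group in the libraries drawn as circles (Cell Ranger 8.0.0) and lower in those drawn as squares (9.0.1).

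Cells outside MG were clustered and named by their markers, and levels were summed over the 4 libraries. Most of these cells came from control replicate 2 and *Yap5SA* replicate 3, and 1400 stayed unnamed. Another 103 cells of MG-like clusters were below the 0.5% limit. *Akap12* was highest in endothelial-like cells (446 CPM, 351 to 558, 18 cells) and pericyte-like cells (377 CPM, 340 to 416, 168 cells), whose intervals overlap. Ganglion-like cells followed with 130 CPM (90.3 to 180, 30 cells) and MG with 89.7 CPM (87.0 to 92.4). In control replicate 2, which gave 24 of the ganglion-like cells, they had 129 CPM (88.2 to 182) and MG 149 CPM, so their order turned within that library and their intervals overlapped. Endothelial-like and pericyte-like cells were above MG in that library too, at 387 and 340 CPM, and in *Yap5SA* replicate 3 at 573 and 815 CPM (5 and 2 cells). Horizontal-like, amacrine-like and T and NK cell-like cells had 59.9, 58.9 and 43.1 CPM, with overlapping intervals. The pooled level of MG follows control replicate 2, and in *Yap5SA* replicate 3 amacrine-like and horizontal-like cells had 77.9 and 68.0 CPM, above MG with 56.4, with intervals that overlapped that of MG. Rod-like cells had 27.2 CPM (23.7 to 31.2), cone-like 11.1, bipolar-like 8.26 and microglia and macrophage-like cells 3.07 CPM (1.90 to 4.69, 794 cells). Pericyte-like cells had 340 CPM in control replicate 2 (156 cells) and 609 CPM in *Yap5SA* replicate 1 (10 cells), so their level varied between libraries beyond counting error.

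*Rnls* had another order. Summed over libraries it was highest in cone-like cells (57.6 CPM, 45.8 to 71.4, 100 cells) and horizontal-like cells (52.4 CPM, 21.1 to 108, 15 cells, of which 2 of control replicate 2 held all 7 UMIs), followed by rod-like (36.9 CPM, 32.7 to 41.5, 925 cells), amacrine-like (36.2 CPM), T and NK cell-like (26.3 CPM) and bipolar-like cells (21.2 CPM). Neighbours in this order had overlapping intervals, while those of cone-like and rod-like cells did not overlap in the sum but did in *Yap5SA* replicate 3. Amacrine-like cells had 41.5 CPM in control replicate 2 and 7.60 CPM in *Yap5SA* replicate 3 (4 UMIs), where MG had 10.9 CPM and bipolar-like cells 24.0 CPM, so the order differed between these libraries. In both of them cone-like, rod-like and bipolar-like cells were above MG, with intervals that overlapped that of MG for rod-like cells in *Yap5SA* replicate 3. Microglia and macrophage-like cells had 10.7 CPM, MG 7.76 CPM (6.99 to 8.59) and pericyte-like cells 2.91 CPM. In endothelial-like and ganglion-like cells 0 UMIs were counted, which allows up to 17.6 and 11.1 CPM at 3 counts of the total. In rod-like cells the level was 44.6 CPM in control replicate 2 (527 cells) and 17.5 CPM in *Yap5SA* replicate 3 (394 cells), and in cone-like cells 84.5 and 30.0 CPM. Rod-like cells of these libraries lay in different clusters. Cluster 11 held 269 of the 283 *Rnls* UMIs of the class and 373 of the rod-like cells of control replicate 2 but 75 of *Yap5SA* replicate 3, and within it the level was 50.6 CPM (44.4 to 57.4) and 52.5 CPM (35.4 to 75.0). The lower level of rod-like cells with *Yap5SA* AAV was thus not present within that cluster. With 1 library per AAV there is no test. In microglia and macrophage-like cells it was 6.52 and 7.17 CPM with *mKate2* AAV and 13.7 and 31.8 CPM with *Yap5SA* AAV (31, 580, 137 and 46 cells). Cluster 3 held 66 of the 73 *Rnls* UMIs of this class and made up 22, 69, 116 and 14 of these cells, while 411 of those of control replicate 2 were in cluster 5, which had 6 UMIs. Within cluster 3 the levels were 7.41, 15.1, 14.6 and 55.7 CPM, so control replicate 2 and *Yap5SA* replicate 1 were alike there.

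*Rasgrp3* was highest in endothelial-like cells (329 CPM, 248 to 427) and microglia and macrophage-like cells (54.0 CPM, 48.7 to 59.8), above all other classes. Endothelial-like cells had 181 CPM (112 to 276, 13 cells) in control replicate 2 and 647 CPM (451 to 900, 5 cells) in *Yap5SA* replicate 3, where 2 cells held all 35 UMIs. Pericyte-like cells had 11.6 CPM (6.02 to 20.3) and MG 5.22 CPM (4.59 to 5.90), and T and NK cell-like and amacrine-like cells had 3.59 and 2.94 CPM, with intervals that reached that of MG. The level of MG is carried by *Yap5SA* replicate 3, and in control replicate 2 MG and amacrine-like cells were alike, at 3.44 and 3.48 CPM. Bipolar-like cells had 0.661 CPM and rod-like cells 0.130 CPM (1 UMI in 925 cells). In cone-like, ganglion-like and horizontal-like cells 0 UMIs were counted, which allows up to 2.08, 11.1 and 22.5 CPM. In microglia and macrophage-like cells the libraries had 65.2 and 49.9 CPM with *mKate2* AAV and 49.9 and 97.7 CPM with *Yap5SA* AAV, which overlapped between AAVs. Cluster 3 held 290 of the 370 *Rasgrp3* UMIs of the class, and within it they had 74.1 and 99.1 against 46.4 and 119 CPM, which also overlapped.

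**Figure D4:**
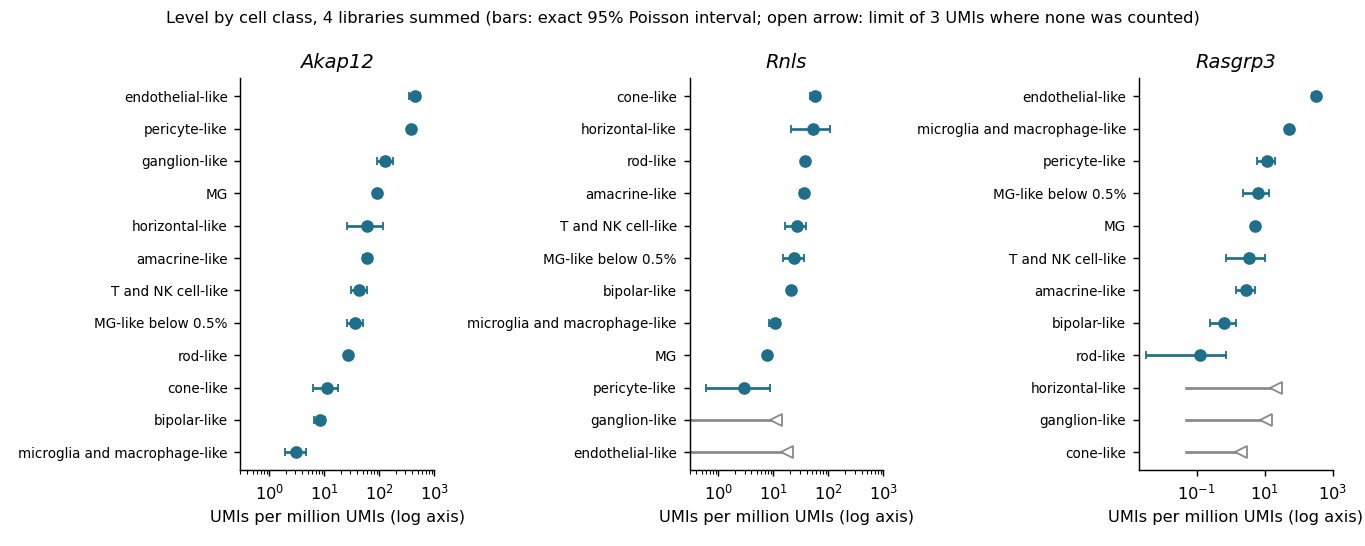
Level of each gene by cell class on a log axis, in CPM over the 4 libraries summed, with exact 95% Poisson intervals as bars and open arrows at the limit that 3 counts set where no UMI was counted. Classes are ordered by level within each panel. Endothelial-like and pericyte-like cells lead for *Akap12*, cone-like and horizontal-like cells for *Rnls*, and endothelial-like cells for *Rasgrp3*. The place of MG against neurons is of pooled sums and turns within single libraries for *Akap12* (ganglion-like, amacrine-like and horizontal-like cells) *Rnls* (amacrine-like cells) and *Rasgrp3* (amacrine-like cells).

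Genes with the pattern most like each gene over 26 class-by-library sums of at least 20 cells, among 16155 genes, were named by Pearson's r of log2(CPM + 1), as a description of points that share libraries and depth. For *Akap12* they were *Tsc22d1* (r = 0.82), *Gna11* (r = 0.82) and *Zfp664* (r = 0.81). For *Rnls* they were *Ambra1* (r = 0.90), *Zfp407* (r = 0.89) and *Cdk13* (r = 0.89). For *Rasgrp3* they were *Cd80* (r = 0.90), *P2ry12* (r = 0.89) and *Npc2* (r = 0.88), of which *P2ry12*, a purine receptor, is one of the microglia markers used to name clusters.

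The closest relatives of the 3 genes were not called between AAVs in MG, where 0 of all 15285 genes tested were called. Other scaffolds of protein kinase A had fitted log2 fold changes of -0.29 ± 0.22 (*Akap11*), -0.08 ± 0.25 (*Akap13*), -0.07 ± 0.26 (*Akap9*) and -0.24 ± 1.20 (*Akap6*; SE, edgeR), and libraries of the AAVs overlapped for all 4. *Akap6* split by Cell Ranger version, with 4.13 and 4.88 CPM under 8.0.0 and 28.6 and 26.3 CPM under 9.0.1 for *mKate2* AAV and *Yap5SA* AAV. *Rasgrp2*, the calcium-responsive exchange factor for Rap1, had 23.9 and 9.63 CPM with *mKate2* AAV and 8.21 and 26.3 CPM with *Yap5SA* AAV and did not separate them. It rose with ribosomal share (1.48 ± 0.25, SE, edgeR, adjusted p = 0.0043) and fell with UMI count (-1.18 ± 0.26, SE, edgeR, adjusted p = 0.0061). *Rasgrp1* and *Rasgrp4* had at most 7 UMIs in a library and were not tested. *Maoa* and *Maob*, the mitochondrial monoamine oxidases, had log2 fold changes of -0.12 ± 0.30 and 0.08 ± 0.38 (SE, edgeR).

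Of 24 genes of protein kinase A and its anchoring proteins 20 were tested between AAVs, 0 were called, and 5 had a fitted change above 0 and 15 below, with a median of -0.08. Over all genes 0 were also called, and 7001 were above 0 and 8284 below, with a median of -0.03. Of the switch of Ras and Rap 31 of 33 genes were tested, with 0 called, 9 above 0, 22 below and a median of -0.11. Of diacylglycerol and protein kinase C signalling 25 of 27 were tested, with 0 called, 9 above 0, 16 below and a median of -0.12. Of amine oxidases and catecholamine breakdown 13 of 17 were tested, with 0 called, 4 above 0, 9 below and a median of -0.12.

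Within libraries these lists had called members. Over all genes 21.9% rose and 19.4% fell with ribosomal share (with 2 groups in place of 3, 1653 and 315 of 13311 genes), and 13.1% rose and 12.7% fell with UMI count. With ribosomal share 13 of 21 genes of diacylglycerol and protein kinase C signalling fell and 0 rose, among them *Prkca*, *Prkce* and *Prkch*, isoforms of protein kinase C, by 1.22, 1.79 and 1.84 on the log2 scale, and *Dgkb*, a kinase that removes diacylglycerol, by 1.35 (edgeR, adjusted p of 0.0080, 0.0071, 0.0054 and 0.0031). With UMI count 5 of 21 rose and 1 fell. The groups of ribosomal share also differed in UMI count and *Malat1*, as given above. From the lower to the upper group the median mitochondrial share went from 2.67% to 3.59% and from 3.58% to 10.4% in control replicates 1 and 2. In *Yap5SA* replicates 1 and 3 it went from 2.84% to 2.14% and from 2.50% to 7.76%. The part of these differences in the counts of called genes was not tested. Of the switch of Ras and Rap 6 of 28 genes rose and 8 fell with ribosomal share, with *Hras* at 2.02 among those that rose and the exchange factors *Rapgef2* and *Sos1* at -1.21 and -0.61 among those that fell. Of protein kinase A and its anchoring proteins 3 of 19 rose and 3 fell, among the latter *Akap13* at -0.68 (edgeR, adjusted p = 0.040). Of amine oxidases 1 of 11 rose and 2 fell. With immediate-early share 0 genes of these 4 lists were called by edgeR, beside 0.817% of all genes.

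*Yap1* itself had 41.3 and 37.3 CPM in MG with *mKate2* AAV and 33.1 and 37.9 CPM with *Yap5SA* AAV (log2 fold change -0.24 ± 0.24, SE, edgeR), and the AAV transgenes are not on the gene lists. Of 22 YAP targets 19 were tested between AAVs, with 0 called, as over all genes, 6 above 0 and 13 below, and a median of -0.22. Libraries did not overlap for 2 targets that were higher and 2 that were lower with *Yap5SA* AAV, beside 11.9% and 3.49% of all genes. Among MG within libraries 9 of 18 targets fell with ribosomal share, beside 19.4% of all genes, and 9 of 19 rose with UMI count, beside 13.1%. With immediate-early share 2 of 19 rose, beside 0.778%, *Ccn1* by 4.15 and *Gadd45a* by 1.37 on the log2 scale. The 24 immediate-early genes had a median of -0.87 between AAVs, with 2 above 0, 22 below, 0 called and libraries that overlapped for all of them.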

How the data were processed

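The authors deposited, per library, counts of UMIs per gene and called cell barcode made by Cell Ranger on GRCm39, not normalized. The labels name version 8.0.0 for all libraries, while per the file headers 2 of the 4 used here were made with 9.0.1. Genes were members of a selection made with earlier results of these data known, as were the lists and tests.

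UMIs were summed per library over MG, filtered with filterByExpr, scaled by TMM and fitted with edgeR 4.0.16 (R 4.3.3), with DESeq2 1.42.0 beside it. Upper and lower groups of MG were compared with library as a block. P-values of these contrasts measure the spread of the difference between upper and lower group over the 4 libraries. Those of the fit between AAVs measure the spread between libraries of the same AAV. The scripts were tested on simulated data. Other cells were clustered with scanpy 1.11.5 (2000 variable genes, 30 components, 15 neighbours, Leiden resolution 1) and named by the type with the highest mean marker level. A name needed a level of at least 0.25 of the highest cluster's, at least 3 markers detected in at least 10% of cells, and no other type with more markers among the 10 leading genes. Clusters led by lens crystallins or immunoglobulins stayed unnamed, a rule set after the clusters were seen, as did shallow clusters with none of their markers among these genes. No doublets were removed, and an alternative left out the 5% of MG with the most UMIs. Thinned shares leave out cells under 2000 UMIs, which were 308, 870, 93 and 411 MG. Intervals are exact Poisson intervals and limits for 0 are 3 counts, for counting error only.

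Genes named are the 3 genes, their closest relatives, called list genes and, for each, the 3 with the most similar levels across classes. Alternatives covered the tool, scaling, filter, MG limits, deep cells, batch as a term and each library left out. Those on markers of other types, on cells of 2000 to 20000 UMIs and without the 10 highest cells were chosen after seeing the data. The study's integration and reference annotation were not repeated.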

Additional observations from a re-analysis of the deposited data

How the results depend on the processing

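No paired analysis was possible because the groups compared share only 1 replicate number, other than by Cell Ranger version, which pairs 1 library per AAV. With version as a term the fold changes were -1.17 ± 0.29 for *Akap12*, 0.93 ± 0.32 for *Rnls* and 1.53 ± 0.43 for *Rasgrp3* (SE), with 0 genes called. The difference of each gene between AAVs had the same direction in all 57 alternatives, which is no sign of stability, since the genes were chosen for libraries that do not overlap, and 0 genes were called between AAVs in all 12. Leaving out each library gave -1.87 to -0.37 for *Akap12* (-0.37 without control replicate 2), 0.87 to 1.00 for *Rnls* and 0.65 to 2.25 for *Rasgrp3* (0.65 without *Yap5SA* replicate 3). *Rnls* was 0.71 without the 5% of MG with the most UMIs, 0.68 in MG of 2000 to 20000 UMIs and 0.61 without the 10 highest cells. Of 72 alternatives of the contrasts within libraries 56 kept direction and side of the threshold. By ribosomal share, 2 groups of MG in place of 3 gave -0.85 for *Rnls*, and leaving out each library gave -2.38 to -1.52 for *Rnls*, -0.86 to 0.21 for *Akap12* (reversed without control replicate 2) and 0.14 to 0.76 for *Rasgrp3*. By UMI count, *Akap12* was 0.76 and called without a filter on low counts (adjusted p = 0.017), 2 groups gave 1.50 for *Rnls* and 0.15 for *Rasgrp3* (reversed), and leaving out each library gave 0.33 to 1.12 for *Akap12* (called without control replicate 1, adjusted p = 0.033), 1.59 to 2.73 for *Rnls* and -0.81 to -0.05 for *Rasgrp3*. By immediate-early share, *Akap12* was 1.52 with DESeq2 and 1.55 without a filter, both called, 2 groups gave 0.026 for *Rnls* (reversed), and leaving out each library gave 1.25 to 1.84 for *Akap12* (called without replicate 1 of either AAV), -0.46 to 0.34 for *Rnls* (reversed without *Yap5SA* replicate 3) and -0.93 to -0.48 for *Rasgrp3*. The causes were not tested. Over all genes the calls by ribosomal share were 4985, with 1968 for 2 groups and 3254 without *Yap5SA* replicate 3. By UMI count they were 3269, with 303 for 2 groups and 1732, 1842 and 2149 without *Yap5SA* replicate 3 or control replicate 2 or 1. By immediate-early share they were 105, with 342 for DESeq2, 763 without a filter, 69 for 2 groups and 31 to 349 with 1 library left out. With 2 groups the middle MG enter the sums. *Rnls* and *Rasgrp3* rest on 26 to 118 UMIs per library, which limits what a split of MG can show.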
